A study of Mus musculus with 98 samples.

Results

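The 8 skeletal muscle libraries taken around lights off, at ZT 10 and 14 (zeitgeber time, counted in hours from the onset of light), are described here, with 2 libraries per arm and time. They were chosen by tissue and time alone, out of 27 muscle libraries and 98 libraries of liver, muscle and hypothalamic nuclei in the whole series. All mice were males of 10 weeks of the FRGN strain, which carries Fah-/-, Rag2-/- and Il2rg-/- on a cross with non-obese diabetic mice, and all were cycled on nitisinone with dextrose water and received prophylactic SMX/TMP antibiotics. The Hu arm had livers repopulated with human hepatocytes, with over 70% repopulation required, and the Mu arm, the control, had livers repopulated with murine hepatocytes. The muscle is mouse tissue in both arms, and every value below is a count assigned to a mouse gene. Hosts of this strain lack B, T and natural killer cells. The light schedule is not given in the sources used here, and the labels do not say whether replicates came from separate mice, so p-values measure the spread between these libraries.

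Skeletal muscle holds its own circadian clock. In its core loop Arntl (BMAL1) and Clock or Npas2 activate genes through E-box elements, among them the Per and Cry repressors, Nr1d1 and Nr1d2, Dbp and Ciart, while the REV-ERB repressors (Nr1d1, Nr1d2) and the ROR activators act on Arntl, Npas2 and Nfil3 through ROR elements. For a nocturnal animal, ZT 10 to 14 brackets the passage from rest to activity and feeding, when muscle turns from fat use towards glucose uptake and glycogen storage, and when several of these clock genes move quickly. The study asks how hepatocyte clocks bear on the timing of other tissues, and this window asks whether the muscle of the 2 arms differed at that passage in another way than at ZT 2, 6, 18 and 22.

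Library totals were 43.1 to 92.1 M counts in the 4 Hu libraries and 62.0 to 79.6 M in the 4 Mu libraries. Levels are given as CPM, counts scaled to a common library total after TMM scaling of library composition. The defining markers of muscle fibres were abundant in every library: Ckm ranged from 13200 to 25000 CPM and Acta1 from 14200 to 39700 CPM. Summed lymphocyte markers were at most 0.548 CPM in any of the 8 libraries, and Mu ZT 10 replicate 1 held that value. Some libraries stood apart. Hu ZT 14 replicate 2 had 2840 CPM of summed fat markers against 163 to 376 CPM in the Mu libraries, and the lowest muscle fibre sum of the 8 (66600 CPM). Mu ZT 10 replicate 1 had the highest sums of blood (700 CPM), neutrophil (80.2 CPM) and slow-fibre (1820 CPM) genes, and Mu ZT 14 replicate 1 that of hepatocyte genes (166 CPM). In bulk tissue, fewer cells of a type and less RNA per cell cannot be told apart.

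The arm difference at ZT 10 and 14 departed from that at the other time points for 20 of 14197 genes tested, which is 0.141% of them (edgeR's quasi-likelihood test of that departure over all 27 muscle libraries, Benjamini-Hochberg adjusted p under 0.05). In 19 genes (0.134%) the Hu minus Mu difference was more positive in the window, and in 1 gene (0.00704%), Pik3cd, more negative. In 18 of the 20 the difference was positive in the window and negative on average over the other times. Only Ankrd1 among them was positive in both sets, and Pik3cd was negative in the window and positive elsewhere. Without an adjustment for multiple testing, 2065 genes (14.5%) had p under 0.05.

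**Figure D1:**
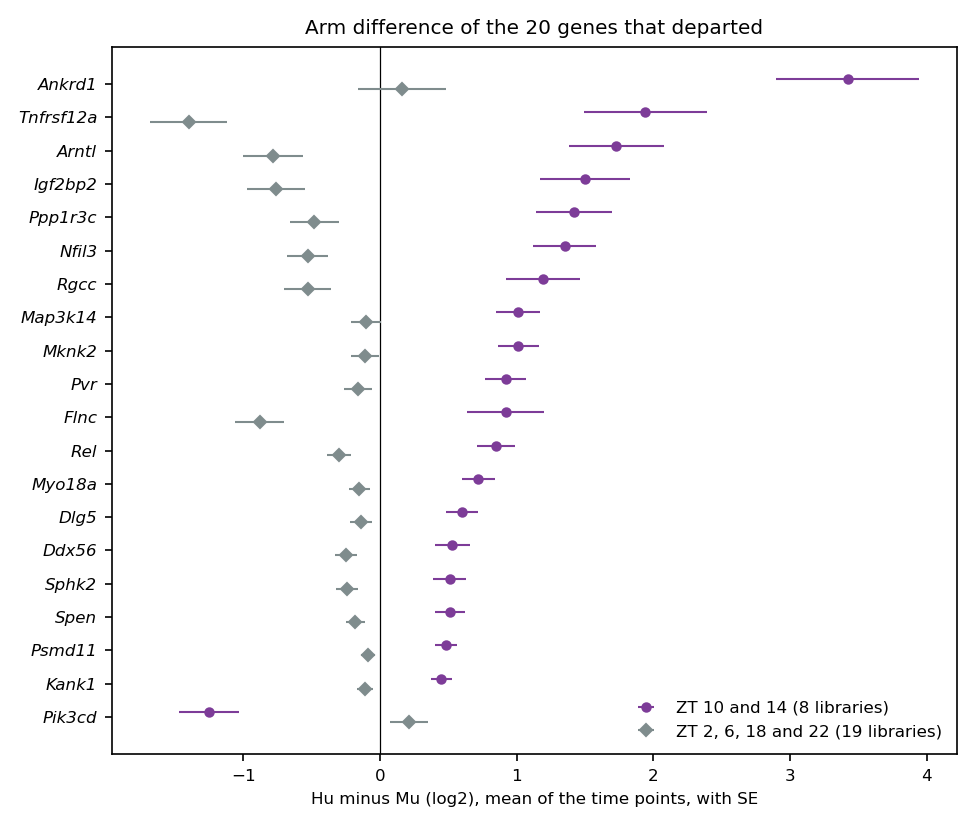
Hu minus Mu difference (log2) of the 20 genes whose arm difference departed, as the mean over ZT 10 and 14 (circles, 8 libraries) and over ZT 2, 6, 18 and 22 (diamonds, 19 libraries), with SE. The genes were chosen by this departure, so the gap between the symbols is a description; Ankrd1 has the largest window difference of the 20 (3.42) and Pik3cd the only negative one (-1.25).

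The clock genes Nfil3 and Arntl were among them. Nfil3 (ENSMUSG00000056749, chr13:52967209-52981073) encodes a repressor that competes with the Dbp family at D-box elements. It stood at 46.2 and 40.2 CPM in the Hu libraries at ZT 10 and at 61.2 and 71.3 CPM at ZT 14, against 11.1 and 10.4 CPM in Mu at ZT 10 and 35.7 and 46.5 CPM at ZT 14. The arms did not overlap at either time. At ZT 10 the Hu mean was 4.02 times the Mu mean, and at ZT 14 it was 1.61 times. The Mu mean at ZT 14 was 3.82 times that at ZT 10, and Mu libraries at ZT 14 read close to Hu libraries at ZT 10. The difference was 1.35 ± 0.23 (log2, SE) in the window and -0.53 ± 0.15 over the other times, a departure of 1.87 ± 0.27 with an adjusted p of 0.0163 in edgeR's quasi-likelihood test.

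Arntl (ENSMUSG00000055116, chr7:113207465-113314126) stood at 17.9 and 7.59 CPM in Hu at ZT 10 and at 16.5 and 55.8 CPM at ZT 14. In Mu it stood at 3.59 and 4.72 CPM at ZT 10 and at 12.9 and 7.17 CPM at ZT 14. Hu lay above Mu within each time point, and Hu ZT 14 replicate 2 lay far above the other 7 libraries. The difference was 1.61 at ZT 10 and 1.85 at ZT 14 (log2), against -0.89 and -2.53 at ZT 2 and 6 and 0.24 and 0.06 at ZT 18 and 22, so the opposite sign was at ZT 2 and 6. The departure was 2.51 ± 0.41 (edgeR quasi-likelihood adjusted p = 0.0232). Without Hu ZT 14 replicate 2 it was 1.95, with an adjusted p of 0.0678 in the same test.

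Of the list of 7 clock activators and genes with ROR elements (among them Arntl, Clock, Npas2, Cry1, Nfil3 and Rora), these 2 passed the departure test, and the list's median departure was 0.76 (log2) against 0.01 over all genes tested. Npas2, the partner of Arntl that can stand in for Clock, was near the detection limit at 0.221 to 0.693 CPM in 3 of the Hu libraries and 0.196 to 0.279 CPM in Mu, and at 3.44 CPM in Hu ZT 14 replicate 2. Its departure of 2.62 ± 0.66 did not pass (edgeR adjusted p = 0.103). Clock had a departure of 0.76 and Cry1 of 0.55, and neither passed. Rora, which encodes a ROR activator, had a departure of -0.12 and was the 1 gene of the list with a negative value.

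None of the 13 E-box and D-box genes (Per1, Per2, Per3, Cry2, Nr1d1, Nr1d2, Dbp, Tef, Hlf, Bhlhe40, Bhlhe41, Ciart, Usp2) passed edgeR's adjusted test of the departure, and 7 did in DESeq2, all with a negative departure. Over all 14197 genes, DESeq2 called 140 negative and 216 positive departures. All 13 departures were negative, with a median of -0.86 (log2), and 9 had an unadjusted p under 0.05 in that direction, against 6.8% of all genes tested. Ciart, a clock-driven repressor, had the largest of these, -2.57 ± 0.56 (edgeR adjusted p = 0.0653). It stood at 1.85, 4.12, 1.37 and 0.956 CPM in Hu, in the order ZT 10 replicates 1 and 2 and ZT 14 replicates 1 and 2, and at 23, 15.2, 2.08 and 5.08 CPM in Mu. Both Mu libraries of ZT 10 were far above all others, and the arms did not overlap within either time point. The difference was 1.48 and 2.14 at ZT 2 and 6, -2.67 and -1.62 in the window, and -1.19 and -0.76 at ZT 18 and 22.

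Dbp, an activator at D-box elements and a direct output of the clock, read 29.9, 105, 28.2 and 3.88 CPM in Hu and 207, 201, 59.5 and 98.3 CPM in Mu in the same order of libraries. Hu was below Mu at both times, with Hu ZT 14 replicate 2 the lowest. Its departure was -2.35 ± 0.59 (edgeR adjusted p = 0.103). The difference was 2.53 at ZT 2 and 1.02 at ZT 6, -1.60 and -2.30 at ZT 10 and 14, and -1.36 and -0.60 at ZT 18 and 22, so negative values were not limited to the window. Per2, a repressor of the core loop, had differences of 2.43 and 2.34 at ZT 2 and 6 of 0.26 and -0.57 in the window and of -1.03 and -0.82 at ZT 18 and 22. Those of Per3 were 1.38 and 1.55, then -0.38 and -0.62, then -0.25 and -0.32.

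Nr1d1 showed opposite differences at the 2 times. It read 46.8 and 49.2 CPM in Hu and 131 and 138 CPM in Mu at ZT 10, then 46.2 and 63.2 CPM in Hu and 24.1 and 28.2 CPM in Mu at ZT 14. The Mu mean at ZT 14 was 0.194 of that at ZT 10, while the Hu mean was 1.14 of it. The averaged window difference of -0.21 ± 0.50 (log2) therefore hides differences of -1.48 at ZT 10 and 1.06 at ZT 14. The change between the times, in the test described below, did not pass in edgeR for Nr1d1 or any other E-box and D-box gene. Nr1d2 did not show this crossing: its differences were -0.45 and -0.89.

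**Figure D2:**
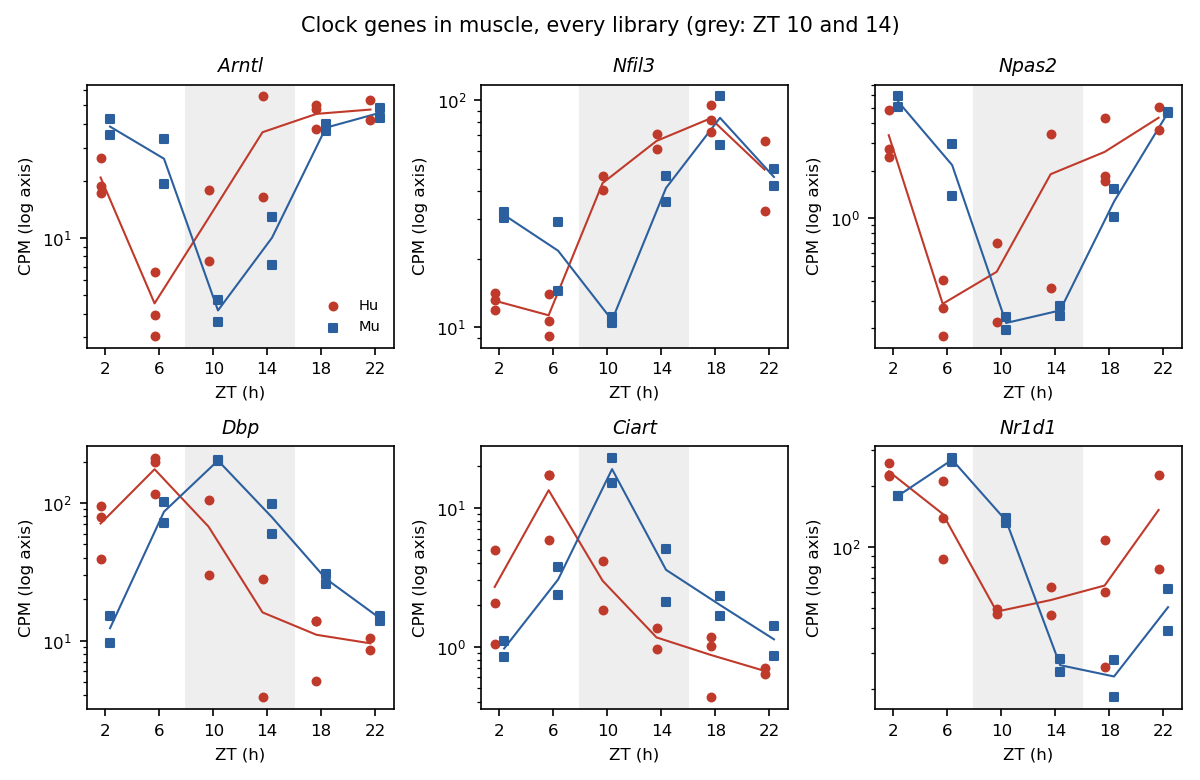
CPM (log axis) of 6 clock genes against ZT in every muscle library, Hu as circles and Mu as squares, with lines through the means and the window in grey. At ZT 10 both Hu values lie above both Mu values for Arntl and Nfil3 and below them for Dbp, Ciart and Nr1d1, and the Nr1d1 arms have changed places at ZT 14.

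The promoter of Ciart is shown because it holds the most copies of the E-box among the clock and departing genes with a promoter sequence. The hexamer CACGTG, which reads the same on both strands, was searched in RefSeq promoters (GRCm38.p6, 250 bases before to 50 after the first listed start of each gene). It was in 7.24% of 27025 promoters, in 4 of the 11 E-box and D-box genes with a sequence (36.4%) and in 1 of the 19 departing genes with one. That 1 gene was Ppp1r3c, shown for this reason. The capitals mark CACGTG, which begins at bases -116, -58 and -44 from the start in Ciart (chr3:95882179-95882478, minus strand) and at -104 in Ppp1r3c (chr19:36736555-36736854, minus strand). The hexamer AGGTCA, the core of ROR elements, searched on both strands, was in 16% of all promoters and in 1 of 6 activators and ROR-element genes with a sequence, Nfil3. A longer form (A, any 2 bases, TAGGTCA) was in 0.751% of all promoters and in none of those 6. In all, 6 motifs were searched, the others being the ISRE core described with the interferon genes, the cAMP response element (TGAC directly followed by GTCA; 1.88% of all promoters, 1 of the 19 departing genes) and an NF-kB site (GGGA, any 2 bases, TTCC; 1.43% of all promoters, none of the 19). The promoters of Nfil3, Arntl, Ifi44 and Irf7 were to be shown first. Apart from the AGGTCA of Nfil3 they held none of the 6 motifs in this window, and the 4 promoters printed here were chosen in their place after the search because they hold matches. A match is a description of these letters and no evidence of binding.
Ciart: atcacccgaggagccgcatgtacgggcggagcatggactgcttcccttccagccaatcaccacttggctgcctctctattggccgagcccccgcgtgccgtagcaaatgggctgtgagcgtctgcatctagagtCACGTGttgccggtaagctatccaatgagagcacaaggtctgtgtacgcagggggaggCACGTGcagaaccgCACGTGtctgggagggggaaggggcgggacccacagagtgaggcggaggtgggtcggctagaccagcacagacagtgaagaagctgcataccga
Ppp1r3c: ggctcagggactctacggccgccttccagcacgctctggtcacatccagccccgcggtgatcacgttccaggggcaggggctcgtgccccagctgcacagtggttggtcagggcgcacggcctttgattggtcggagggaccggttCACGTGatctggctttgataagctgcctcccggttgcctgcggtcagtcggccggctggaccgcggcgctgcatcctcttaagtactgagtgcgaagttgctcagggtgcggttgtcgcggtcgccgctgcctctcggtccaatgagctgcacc

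Among the departing genes, Ppp1r3c, Rel, Sphk2 and Spen had larger Hu to Mu ratios at ZT 10 than at ZT 14, though of these only Rel passed the test of that change described next. Ppp1r3c (ENSMUSG00000067279), which encodes a subunit that brings protein phosphatase 1 to glycogen and favours glycogen synthesis, stood at 771 and 435 CPM in Hu and at 73.9 and 124 CPM in Mu at ZT 10. At ZT 14 the values were 691 and 748 CPM in Hu and 673 and 559 CPM in Mu. The Hu mean was thus 6.09 times the Mu mean at ZT 10 and 1.17 times at ZT 14, and the Mu mean at ZT 14 was 6.23 times that at ZT 10. Its departure was 1.90 ± 0.33 (edgeR quasi-likelihood adjusted p = 0.0283), and its change from ZT 10 to ZT 14 was -2.38 ± 0.56 (adjusted p = 0.188).

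Rel (ENSMUSG00000020275, chr11:23736847-23770970), an NF-kB subunit, showed the same order. It read 12.6 and 11.6 CPM in Hu and 3.36 and 3.44 CPM in Mu at ZT 10, and 8.53 and 10.4 CPM in Hu and 10.1 and 10.6 CPM in Mu at ZT 14. The arms were wide apart at ZT 10 and overlapped at ZT 14. Its departure was 1.15 ± 0.17 (edgeR adjusted p = 0.0163). Sphk2, a sphingosine kinase, and Spen, a transcriptional corepressor, also had larger Hu to Mu ratios at ZT 10 (1.84 and 1.62) than at ZT 14 (1.10 and 1.25). Their departures were 0.74 ± 0.14 and 0.68 ± 0.13, and their changes from ZT 10 to ZT 14, -0.73 and -0.38, did not pass (edgeR adjusted p = 0.322 and 0.515).

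The change of the arm difference from ZT 10 to ZT 14 was tested for all genes in the same 27 libraries. It passed for 2 of 14197 genes (0.0141%), both with a more negative difference at ZT 14, and 1522 genes (10.7%) had an unadjusted p under 0.05, 4.77% with a positive and 5.95% with a negative change. Rel changed by -1.96 ± 0.28 (log2) and Ell2, an elongation factor of RNA polymerase II, by -1.12 ± 0.17, each with an adjusted p of 0.0176 in edgeR's quasi-likelihood test. Ell2 read 45.1 and 42.0 CPM in Hu and 23.9 and 23.6 CPM in Mu at ZT 10, and 34.5 and 39.2 CPM in Hu and 45 and 42.7 CPM in Mu at ZT 14. The arms did not overlap at either time, and their order was reversed between the times. Leaving out Hu ZT 14 replicate 1 raised the count to 471, and without Hu ZT 14 replicate 2, Hu ZT 6 replicate 1 or Hu ZT 2 replicate 3 it was 6, 5 and 4, with both genes among them. Leaving out Mu ZT 14 replicate 2 gave 1 gene, which was neither of the 2, and leaving out any 1 of the 4 libraries of ZT 10 or Mu ZT 14 replicate 1 gave 0 in this test, with 845 to 1284 unadjusted p-values under 0.05.

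Other genes with the smallest p-values in that contrast did not pass and are given as values. G0s2, an inhibitor of the lipase ATGL, read 55.8 and 46.6 CPM in Hu and 9.70 and 9.44 CPM in Mu at ZT 10, then 18.4 and 21.9 CPM in Hu and 129 and 72.6 CPM in Mu at ZT 14 (change -4.74 ± 0.85, edgeR adjusted p = 0.102). The order of the arms was opposite at the 2 times, with no overlap at either. Dusp7, a phosphatase of ERK kinases, had a change of -2.22, Magix of -2.08 and Purg of -1.27. In the other direction, Ddit4, an inhibitor of mTORC1, read 24.3 and 20.8 CPM in Hu and 18.7 and 15.3 CPM in Mu at ZT 10, then 107 and 102 CPM in Hu and 10.2 and 15.4 CPM in Mu at ZT 14. Both Hu libraries of ZT 14 were far above the other 6. Panx1 (2.02), Eda2r (2.71), Klhl30 (1.54), Clptm1l (0.69) and Egr2 (2.12) also had a more positive difference at ZT 14, with edgeR adjusted p-values of 0.102 to 0.192 over these 6 genes.

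The remaining positive genes had a larger ratio at ZT 14, none with a change between the times that passed, and several are muscle stress or structural genes. Ankrd1 (ENSMUSG00000024803, chr19:36111961-36120099), a titin-associated protein induced by stretch and injury, read 51.0, 5.75, 235 and 83.2 CPM in Hu and 8.76, 5.63, 6.86 and 4.06 CPM in Mu, in the order ZT 10 replicates 1 and 2, then ZT 14 replicates 1 and 2. Hu ZT 10 replicate 2 lay within the Mu range, and the other 3 Hu libraries lay above it. At ZT 14 the Hu mean was 29.1 times the Mu mean. Its departure was 3.26 ± 0.59 (edgeR adjusted p = 0.0330).

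Tnfrsf12a (ENSMUSG00000023905, chr17:23675445-23677468), the receptor for the cytokine TWEAK, read 31.7, 11.3, 81.5 and 61.1 CPM in Hu and 7.85, 7.76, 14 and 12.4 CPM in Mu. Hu lay above Mu within each time point, by a ratio of means of 2.75 at ZT 10 and 5.40 at ZT 14. Its departure was 3.35 ± 0.54 (edgeR adjusted p = 0.0232), since the difference over the other times was -1.40 ± 0.28. Map3k14 encodes NIK, a kinase of the non-canonical NF-kB pathway that acts downstream of such receptors. It read 11.8, 10.1, 18 and 27 CPM in Hu and 6.79, 6.02, 8.28 and 10.7 CPM in Mu, with a departure of 1.12 ± 0.19 (edgeR adjusted p = 0.0283). The plain window difference, from the same 8 libraries, also passed for Tnfrsf12a (1.95, adjusted p = 0.0465) and Map3k14 (1.01, adjusted p = 0.0430), and for no other departing gene.

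Flnc encodes filamin C, an actin crosslinker of the Z-disc. It read 1510, 938, 3390 and 2620 CPM in Hu and 1100, 948, 1070 and 937 CPM in Mu. The Mu libraries were close together, and only the Hu libraries of ZT 14 and Hu ZT 10 replicate 1 exceeded them. The departure of Flnc was 1.80 ± 0.34 (edgeR adjusted p = 0.0356). Myo18a, an unconventional myosin (departure 0.86), Kank1, a regulator of actin assembly (0.56), and Dlg5, a scaffold protein (0.75), also departed upwards. So did Rgcc, a cell cycle regulator (1.72), Igf2bp2, an RNA-binding protein that binds Igf2 mRNA (2.25), and Mknk2, a kinase of the translation factor eIF4E (1.11). Pvr, a nectin-like adhesion molecule (1.08), Psmd11, a proteasome subunit (0.57), and Ddx56, an RNA helicase (0.78), completed the positive group. Their ratios of Hu to Mu means were 1.10 to 1.47 at ZT 10 and 1.48 to 6.17 at ZT 14.

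Pik3cd, the delta catalytic subunit of phosphoinositide 3-kinase and mostly known from leukocytes, was the negative case. It read 7.88, 10.7, 7.63 and 6 CPM in Hu and 29.3, 14.6, 14.4 and 18.6 CPM in Mu. All 4 Hu values lay below all 4 Mu values. The highest, Mu ZT 10 replicate 1, was also the library with the highest neutrophil and blood sums, and the part of these cells in the result was not tested. The departure was -1.46 ± 0.26 (edgeR adjusted p = 0.0306).

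**Figure D3:**
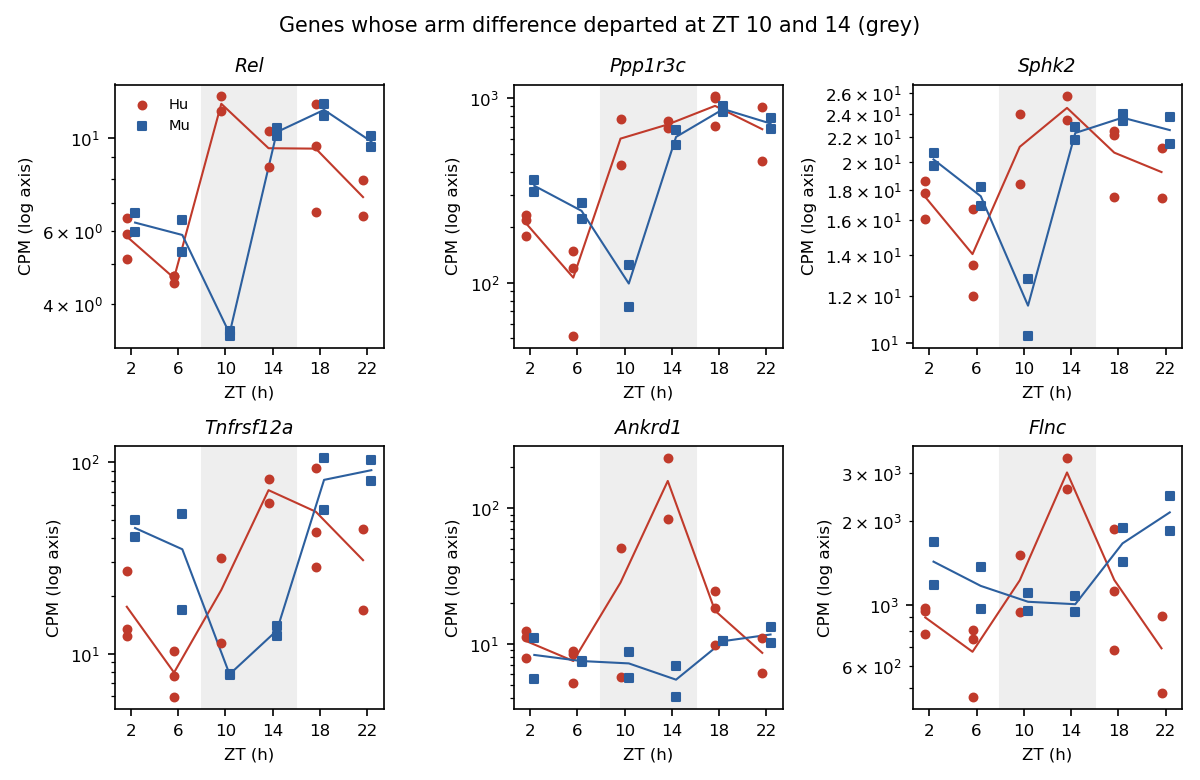
CPM (log axis) of 6 departing genes against ZT in every muscle library, Hu as circles and Mu as squares, with lines through the means and the window in grey. In Mu, the means of Rel, Ppp1r3c and Sphk2 are lowest at ZT 10 and lie near those of Hu at ZT 14, while Tnfrsf12a, Ankrd1 and Flnc have their highest Hu mean at ZT 14.

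The count of departing genes depended on single libraries and times. Leaving out Hu ZT 14 replicate 2 left 5 genes, of which 4 were among the 20 (Nfil3, Rel, Tnfrsf12a and Ankrd1). Leaving out Hu ZT 14 replicate 1 gave 865 genes, with all 20 among them. Leaving out Hu ZT 10 replicate 1, Mu ZT 10 replicate 1 or Mu ZT 14 replicate 1 gave 0 genes in edgeR (1379 to 1750 with an unadjusted p under 0.05), and leaving out Mu ZT 10 replicate 2 or Mu ZT 14 replicate 2 gave 1 and 2. Outside the window, the count fell to 2 without Mu ZT 22 replicate 1, to 8 without Mu ZT 6 replicate 1, to 12 and 11 without Hu ZT 22 replicate 1 and Mu ZT 22 replicate 2, and to 0 without ZT 6 as a whole (2601 with an unadjusted p under 0.05). It rose to 90 without Hu ZT 10 replicate 2, and to 54, 51, 42 and 36 without Hu ZT 22 replicate 2, Hu ZT 6 replicate 1, Mu ZT 6 replicate 2 and Mu ZT 18 replicate 2. In every one of 36 alternative fits run for each of the 20 genes, the departure kept its sign. The genes were chosen for this departure and the fits share most libraries, so the kept sign is a description.

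No gene of the heat-shock and temperature list passed the departure test in edgeR. In DESeq2 5 did, all positive, against 216 positive among all 14197 genes. Of its 17 genes, 13 had an unadjusted p under 0.05 in edgeR with a positive departure, against 7.74% of all genes tested. The median was 0.69 (log2). Hspb1, a small heat shock protein, read 177, 78.6, 572 and 231 CPM in Hu and 99.0, 84.7, 99.3 and 121 CPM in Mu, with a departure of 2.15 (edgeR adjusted p = 0.0542). Hspb7, a cardiac and skeletal muscle family member, read 758, 430, 1950 and 1440 CPM in Hu and 887, 588, 473 and 392 CPM in Mu (departure 2.24). Hu ZT 14 replicate 1 was the highest library for both. The inducible Hspa1a and Hspa1b had departures of 3.35 and 3.36 that did not pass (edgeR adjusted p = 0.168 and 0.154), and Hu ZT 14 replicate 1 was again the highest of the 8, at 33.2 and 46.1 CPM. Their window differences were 0.86 and 0.94 (log2), and those over the other times -2.49 and -2.41, where Mu libraries reached 228 and 309 CPM and Hu libraries 18.6 and 24.8 CPM. The summed list ran up to 8790 CPM in Mu and 4000 CPM in Hu at the other times.

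Of the 12 slow-fibre genes none passed in edgeR or DESeq2, with a median departure of 2.17 (log2) and 6 unadjusted p-values under 0.05, all positive, against 7.74% of all genes. Their sum was 1070, 425, 1070 and 893 CPM in Hu and 1820, 467, 393 and 266 CPM in Mu, so the arms overlapped, and the labels do not name the muscle that was taken. The median difference of the list in the window was 0.4 (log2). At the other times the slow-fibre sum ran from 144 to 935 CPM in Hu and from 258 to 2900 CPM in Mu. The 13 fast-fibre genes had a median departure of -0.39. Casq1, the calcium buffer of fast fibres, read 374 CPM in Hu ZT 14 replicate 2 and 1410 to 2670 CPM in the other 7 libraries.

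Regardless of the other times, 163 of 14224 genes (1.15%) differed between the arms within the window (edgeR's quasi-likelihood test on the 8 libraries with ZT as covariate, adjusted p under 0.05). Of these, 59 (0.415%) were higher and 104 (0.731%) lower in Hu, and 45 and 42 of them by more than 2-fold. All 4 Hu values were above all 4 Mu values in 53 of the 59, and below in 100 of the 104, against 7.78% and 9.59% of all genes tested. The genes were called on these same 8 libraries, so their separation is a description and no further support. At an unadjusted p under 0.05 there were 3493 genes (24.6%), and the smallest adjusted p was 0.0295. Without any 1 of the 4 Mu libraries no gene passed in edgeR's test, while 2327 to 3176 genes had an unadjusted p under 0.05. Without Hu ZT 10 replicate 1 there were 15 calls and without Hu ZT 10 replicate 2 there were 84. Without Hu ZT 14 replicate 1 there were 265, and without replicate 2 of that time 350, of which 157 were among the 163. DESeq2 called 1849 genes, all 163 among them.

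The 19 libraries of the other times, which this test did not use, gave a difference of the same sign for 53 of the 59 higher genes and 98 of the 102 lower genes that could be fitted there. Over all genes in both fits the signs were equal in 65.3%. The median difference of the higher genes was 1.41 (log2) in the window and 0.70 at the other times, and that of the lower genes -0.93 and -0.57. The genes were chosen on their window values, so the larger values there are a description.

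Among the 12 genes higher in Hu with the smallest p-values, several are known from macrophages or encode secreted proteins. Cxcl13, a chemokine that attracts B cells, had the largest difference of these, 5.67 ± 0.76 (log2, SE, edgeR adjusted p = 0.0295). It read 7.83, 4.75, 6.66 and 37.3 CPM in Hu and 0.267, 0.182, 0.402 and 0.0696 CPM in Mu. Every Hu library was far above every Mu library, and Hu ZT 14 replicate 2 was the highest. Cd163, the haptoglobin-haemoglobin scavenger receptor of resident macrophages, read 17.5, 28.6, 32.5 and 41.6 CPM in Hu and 7.76, 8.08, 8.15 and 5.36 CPM in Mu (2.00 ± 0.26). Cd209b, a C-type lectin (2.40), Wfdc17 (2.10) and Rarres2, the adipokine chemerin (1.46), were also higher.

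Of the 6 macrophage markers, C1qa and C1qb were higher (1.39 and 1.36, edgeR adjusted p = 0.0476 and 0.0392), and 5 had all Hu values above all Mu values, against 0.415% called higher and 7.78% above among all genes. The macrophage sum was 100, 161, 192 and 151 CPM in Hu and 83.9, 74.6, 54.9 and 44.9 CPM in Mu, without overlap. At the other times it ran from 82.6 to 234 CPM in Hu and from 43.8 to 151 CPM in Mu, and overlapped. The part of macrophage content in the difference of Cd163, Cd209b and Cxcl13 was not tested. Fat markers lay on the same side: 0 of 8 passed in edgeR, and 6 were higher at an unadjusted p under 0.05, against 12.7% of all genes. DESeq2 called 5 of them higher, against 902 of all 14224 genes. All Hu values were above all Mu values in 5, against 7.78% of all genes. The fat sum was 591, 344, 1620 and 2840 CPM in Hu and 376, 354, 248 and 163 CPM in Mu, with overlap at ZT 10. At the other times the fat sum ran from 270 to 3290 CPM in Hu and from 231 to 2660 CPM in Mu, and overlapped. For Rarres2, which fat also expresses, the part of fat was not tested.

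Some of the other higher genes are known from muscle fibres. Asb11, a substrate-binding subunit of an E3 ubiquitin ligase, read 196, 176, 200 and 215 CPM in Hu and 91.7, 103, 110 and 117 CPM in Mu (0.90 ± 0.09), and Smyd2, a lysine methyltransferase expressed in muscle, read 218, 170, 191 and 219 CPM against 82.2, 87.1, 113 and 106 CPM (1.05 ± 0.12). Spread within an arm was small for both, and both arms were well separated. Sntb1, a syntrophin of the dystrophin complex (2.11), Cacng1, a calcium channel subunit of muscle (0.80), Camk2n1, an inhibitor of CaMKII (0.84), Pou4f1, a transcription factor better known from sensory neurons (1.51), and Ces1d, a carboxylesterase (1.07), were higher as well. Ces1d was the 1 of these 12 whose arms overlapped.

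Among the 12 lower genes with the smallest p-values, Ifi44, Gbp9 and Iigp1 are interferon-induced. Interferons signal through STAT and IRF factors that bind interferon-stimulated response elements (ISRE) and related sites. After these values were seen, 51 interferon-response genes were listed, and 50 of them could be tested. Of these, 14 were lower in Hu, none was higher, and 19 had all Hu values below all Mu values, against 0.731% called lower and 9.59% below among all genes. The median difference was -0.52 (log2), against 0.03 over all genes, and since the list was made with these values in view, it is a description.

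Ifit3 (ENSMUSG00000074896, chr19:34583531-34588731), a tetratricopeptide antiviral protein, read 3.23, 5.26, 3.90 and 3.40 CPM in Hu and 15.9, 26.3, 9.45 and 13.9 CPM in Mu (-1.99 ± 0.26, edgeR adjusted p = 0.0295). Every Hu value was below the lowest Mu value. Ifi44 read 1.08, 1.55, 0.820 and 0.549 CPM in Hu and 4.24, 4.68, 3.26 and 2.79 CPM in Mu (-1.95 ± 0.21). Irf7, the factor that amplifies the type I response, read 4.16 to 4.42 CPM in Hu and 6.72 to 9.96 CPM in Mu (-0.93 ± 0.13). The guanylate-binding proteins Gbp3 (-1.26), Gbp4 (-1.01), Gbp6 (-0.74) and Gbp9 (-0.93) and the immunity-related GTPases Iigp1 (-1.14), Irgm2 (-0.72) and Tgtp2 (-1.81) were lower too.

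Ifit1 (-1.39), Ifit2 (-0.81), Bst2 (-0.74) and Ifi44l (-4.99, near the detection limit) completed the 14 lower genes. The rest of the interferon genes tested did not pass. Oas2, a sensor enzyme of double-stranded RNA, read 2.87 to 5.73 CPM in Hu and 4.53 to 7.02 CPM in Mu (-0.46). Summed over the list, the Hu libraries read 266 to 293 CPM and the Mu libraries 454 and 432 CPM at ZT 10 and 328 and 311 CPM at ZT 14, without overlap. At the other times the sums ran from 288 to 786 CPM in Hu and from 303 to 530 CPM in Mu, and overlapped. Hu ZT 6 replicate 1 stood apart there. It read 187 CPM of Rsad2, 36.4 of Isg15 and 24.7 of Irf7, against at most 8.34, 3.21 and 9.68 CPM in the others. Not all list genes were raised in that library: Ifi44 read 2.14 CPM, within the 1.17 to 3.42 CPM of Hu at these times. The part of that library in the list's departures was not tested. None of 49 list genes passed the departure test in edgeR and 4 did in DESeq2, all negative, against 140 negative among all 14197 genes. The median departure was -0.42, and 14 had an unadjusted p under 0.05 in the negative direction, against 6.8% of all genes.

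**Figure D4:**
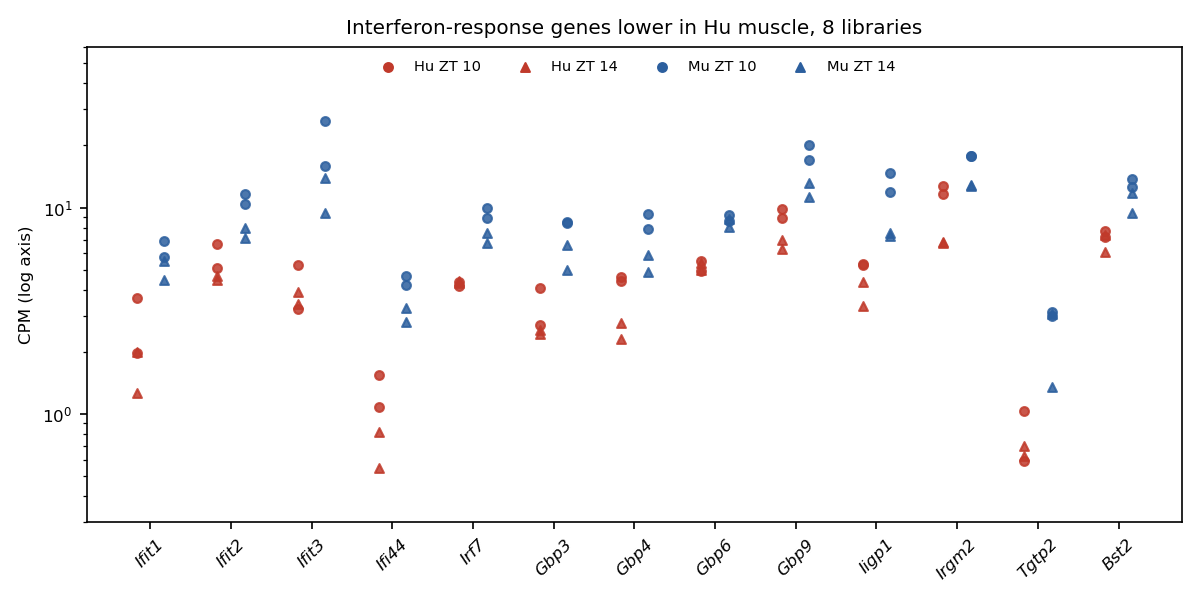
CPM (log axis) of 13 interferon-response genes lower in Hu, in the 8 libraries, Hu to the left and Mu to the right of each position, circles at ZT 10 and triangles at ZT 14. No Hu point reaches the lowest Mu point of its gene, and the list was chosen after these values were seen. Ifi44l, at 0 to 0.0328 CPM in Hu and 0.362 to 0.678 CPM in Mu, is not drawn.

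The promoters of Gbp3 and Ifit3 are shown because they hold copies of an ISRE core, and were chosen after the search for that reason. That core (GAAA, any 2 bases, GAAA) was searched on both strands of the same RefSeq promoters, and it reads TTTC, 2 bases, TTTC on the strand printed here. It was in 3.49% of all 27025 promoters, in 22 of the 37 interferon-response genes with a sequence (59.5%) and in 6 of the 10 with a sequence that were lower in Hu. The capitals mark the matches, which overlap in Gbp3 (chr3:142559794-142560093, plus strand, first bases -45 and -39) and lie apart in Ifit3 (chr19:34583279-34583578, plus strand, first bases -156 and -122). The match is again only a description.
Gbp3: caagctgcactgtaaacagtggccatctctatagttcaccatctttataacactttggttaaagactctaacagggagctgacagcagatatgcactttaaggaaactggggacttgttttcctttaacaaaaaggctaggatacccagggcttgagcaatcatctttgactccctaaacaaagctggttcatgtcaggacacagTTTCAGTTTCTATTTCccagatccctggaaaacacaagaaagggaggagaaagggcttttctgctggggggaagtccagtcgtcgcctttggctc
Ifit3: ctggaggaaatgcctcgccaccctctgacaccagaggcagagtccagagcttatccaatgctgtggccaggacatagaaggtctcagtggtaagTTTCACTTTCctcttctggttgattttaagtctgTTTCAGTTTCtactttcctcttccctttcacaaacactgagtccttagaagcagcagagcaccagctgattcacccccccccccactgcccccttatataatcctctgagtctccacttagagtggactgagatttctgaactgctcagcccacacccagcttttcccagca

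The remaining lower genes span signalling, transport and metabolism. Lgr6, a receptor for R-spondins, had the largest difference of the 12, -2.74 ± 0.31, with 0.642, 1.26, 0.481 and 0.502 CPM in Hu and 6.90, 3.69, 3.31 and 4.68 CPM in Mu. Fzd9, a Wnt receptor, read 11.8, 11.9, 8.43 and 7.37 CPM in Hu and 23.9, 25.4, 18.8 and 22.5 CPM in Mu (-1.22 ± 0.11). Both Wnt-related receptors were separated between the arms. Ephb1, an ephrin receptor (-1.38), Asap2, an Arf GTPase activator (-0.85), Rcan2, a calcineurin regulator (-0.84), Slc41a1, a magnesium transporter (-0.94), and Mfsd4a, a membrane transporter (-1.16), were lower as well. Bdh1, the mitochondrial enzyme that interconverts ketone bodies, read 35.8, 41.4, 34.9 and 26.0 CPM in Hu and 114, 79.2, 72.3 and 66.6 CPM in Mu (-1.26 ± 0.15), and Pank1, which makes coenzyme A, fell by 0.93 on the log2 scale.

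Mitochondrial fuel genes lay on the same side. In the fatty acid uptake and oxidation list, Acaa2 (-0.95 ± 0.13) and Hadh (-0.64 ± 0.11), enzymes of the later steps of beta-oxidation, were lower among 25 genes tested, and 11 had all Hu values below all Mu values, against 0.731% and 9.59% of all genes. Acaa2 read 140, 151, 113 and 110 CPM in Hu and 292, 214, 217 and 260 CPM in Mu. The list's median was -0.46 (log2). Fabp3, the fatty acid binding protein of muscle, read 180 to 247 CPM in Hu and 347 to 759 CPM in Mu (-1.18, edgeR adjusted p = 0.0566), and Slc25a20, the carnitine carrier, had a difference of -0.68. None of the 25 passed the departure test in edgeR or DESeq2, and 1, the uncoupling protein gene Ucp3 (-1.36), had an unadjusted p under 0.05.

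In the oxidative phosphorylation list, 0 of 91 genes passed edgeR's test of the level. DESeq2 called 45 lower and 1 higher, against 947 and 902 of all 14224 genes. All Hu values were below all Mu values in 62, against 9.59% of all genes. In edgeR 68 had an unadjusted p under 0.05 in that direction, against 11.9%. The median was -0.40. Sdhb, a subunit of complex II, read 349, 338, 293 and 247 CPM in Hu and 478, 432, 431 and 492 CPM in Mu (-0.59, edgeR adjusted p = 0.0572). Atp5g3, a subunit of ATP synthase, had a difference of -0.70, Ndufa9 of -0.58 and Ndufs4 of -0.49. Ribosomal protein genes lay on the other side: Rpl12 was higher (0.78, edgeR adjusted p = 0.0392), 45 of 80 had all Hu values above all Mu values, against 7.78% of all genes, and none below. The median was 0.44, and 73 had an unadjusted p under 0.05 with a positive difference, against 12.7%. DESeq2 called 61 higher, against 902 of all 14224 genes. CPM values are shares of a library and not amounts per cell.

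Further lists held few genes that passed in edgeR, where 0.731% of all genes were called lower. Pdk1, an inhibitor of pyruvate dehydrogenase, was the 1 lower gene of 20 in glucose uptake and use (-0.58, edgeR adjusted p = 0.0362), and Tbc1d4, a Rab GTPase activator that controls GLUT4 traffic, read 73.2 to 130 CPM in Hu and 61.6 to 64.3 CPM in Mu (0.58, adjusted p = 0.0767). Gpam, the first enzyme of triglyceride synthesis, was lower (-1.17), 1 of 18 in fatty acid and triglyceride synthesis. Chrne, the adult subunit of the acetylcholine receptor at the junction, was lower (-0.93), 1 of 16 in the denervation list. Col15a1 (-1.64) and Col22a1 (-1.11), collagens of basement membrane and of the muscle-tendon junction, were lower among 42 collagens, with a median of -0.82. Of the 42, 21 were lower at an unadjusted p under 0.05 in edgeR, against 11.9% of all genes. All Hu values were below all Mu values in 9, against 9.59%. DESeq2 called 12 lower, against 947 of all 14224 genes. Fibroblast sums ran from 587 to 1770 CPM in Hu and from 1460 to 2870 CPM in Mu and overlapped, and their part in the collagen values was not tested. Kdr, an endothelial receptor, was lower (-0.53), 1 of 6 endothelial markers.

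No gene passed edgeR's level test among 25 fasting and atrophy genes, 20 glucocorticoid targets, 15 sterol genes, 14 genes of the unfolded protein response, 18 immediate early genes or 15 genes of the growth hormone and IGF axis. Their unadjusted p-values were under 0.05 and positive for 10, 11, 4, 4, 7 and 8 genes in this order, against 12.7% of all genes. DESeq2 called 8, 10, 4, 4, 4 and 7 of them higher, against 902 of all 14224 genes. The fasting and glucocorticoid lists share genes, among them Foxo1, Ddit4, Mt1 and Mt2, so their counts are not separate. Mt1, a metallothionein, read 424 CPM in Hu ZT 14 replicate 2, 17.2 to 31.6 CPM in the other Hu libraries and 8.68 to 13.5 CPM in Mu. Foxo1, a factor of fasting and atrophy, read 79.3, 52.6, 40.9 and 176 CPM in Hu and 28.0, 27.4, 43.5 and 51.7 CPM in Mu. Hu ZT 14 replicate 2 was again the highest. The fasting and atrophy sum of that library was 9060 CPM, against 2450 to 3670 CPM in the other 7.

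**Figure D5:**
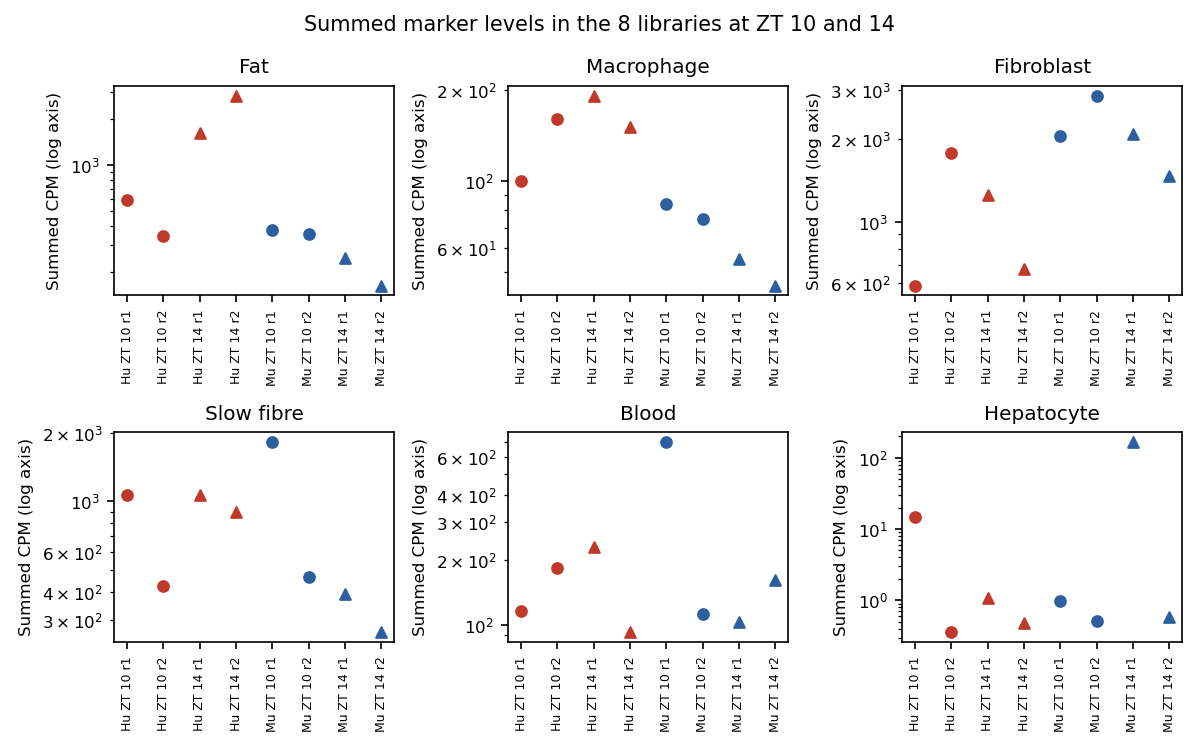
Summed CPM (log axis) of marker genes of 6 cell or fibre types in each of the 8 libraries, circles at ZT 10 and triangles at ZT 14. Macrophage sums do not overlap between the arms (100 to 192 CPM in Hu, 44.9 to 83.9 CPM in Mu), fat is highest in the Hu libraries of ZT 14, and slow fibre and blood in Mu ZT 10 replicate 1.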

How the data were processed

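RNA was isolated with the RNeasy kit and libraries were made with a directional kit, per the labels' protocols. The authors deposited raw counts per mouse gene, 1 column per library, with no normalization. STAR and the builds GRCm38/mm10, GRCh38/hg38 and hg19 are listed in the submitters' processing notes without a role. The counter, annotation and strand setting are not given in the sources used here, so overlapping and antisense genes may share reads. The table's 20415 rows were matched to symbols by Ensembl identifier (20329 matched), and 44 columns of other tissues were not used. Coordinates are those of the GENCODE annotation on GRCm38.

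In edgeR 4.0.16 (R 4.3.3), genes were kept by filterByExpr with the arm as group, scaled by TMM and tested with glmQLFTest, with Benjamini-Hochberg adjustment over all genes tested. The level test used 8 libraries with ZT as covariate (5 residual degrees of freedom). The departure and the ZT 14 against ZT 10 contrast used 27 libraries with 12 arm and time means (15 degrees of freedom). SE is the size of the log2 difference over the square root of F. CPM use TMM-scaled library sizes over 27 libraries. The scripts were tested on simulated counts. Replicates of 1 arm and time differed by more than counting noise in every pair.

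Named genes were all those called in the departure test, the 12 per direction with the smallest p among those called in the level test with a mean of at least 1 CPM, the 6 per direction with the smallest p in the third contrast, all clock genes, and up to 4 per list. The members, the lists and the rule were chosen with earlier results of these data known. Of 6 motifs searched in RefSeq promoters (GRCm38.p6), all are reported, but the 4 promoters printed replaced 4 planned first (Nfil3, Arntl, Ifi44, Irf7) after the search showed which hold matches, so they do not represent their groups. The interferon list, and the removal of S6 kinase and binding-protein genes from the ribosomal list, followed after the values were seen, and markers are given outside the rule where a result turns on them. Alternatives were RLE size factors, DESeq2 1.42.0, no filter on low counts, a replicate block, other sets of libraries or times and each library left out. Some members of the lists are not reported here by name. Beside a depth of 43.1 to 92.1 M counts, the small number of libraries limits the precision.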

Additional observations from a re-analysis of the deposited data

Results flagged for a closer look

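The arm difference of the following genes at ZT 10 and 14 differed from that at ZT 2, 6, 18 and 22 by edgeR's quasi-likelihood test of the difference itself, in log2. The clock genes were Nfil3 (1.87) and Arntl (2.51). Signalling genes were Tnfrsf12a (3.35), Map3k14 (1.12), Rel (1.15), Mknk2 (1.11), Sphk2 (0.74) and Pik3cd (-1.46). Genes of muscle structure and the cytoskeleton were Ankrd1 (3.26), Flnc (1.80), Myo18a (0.86) and Kank1 (0.56). The others were Ppp1r3c (1.90), Igf2bp2 (2.25), Rgcc (1.72), Pvr (1.08), Psmd11 (0.57), Spen (0.68), Dlg5 (0.75) and Ddx56 (0.78). Between ZT 10 and ZT 14 the arm difference of Rel changed by -1.96 and that of Ell2 by -1.12 in the same kind of test.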

How the results depend on the processing

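The level count of 163 was 175 with RLE size factors, 171 with no filter and 156 with no ZT term, against 1849 in DESeq2 (902 higher, 947 lower) and 1108 in a fit over all 27 libraries. With single libraries left out it ran from 0 to 350. The departure count of 20 was 20 with RLE and with no filter and 356 in DESeq2. It was 0 with 1 arm difference per window (1874 unadjusted p-values under 0.05), and 3, 0, 5 and 10 without ZT 2, 6, 18 or 22 among the other times. With single libraries left out it ran from 0 to 865. The count of 2 for the change from ZT 10 to ZT 14 was 113 in DESeq2 (38 higher, 75 lower) and 8 in a fit on the 8 libraries, with Rel but not Ell2 among them, and ran from 0 to 471 with single libraries left out. Each of the 163, 20 and 2 called genes kept its sign in every alternative fit that could test it (14, 36 and 32 fits). These fits share most libraries with those that chose the genes, so the kept sign is a description. With the replicate number as a block, no gene passed in any of the 3 comparisons in edgeR (0, 0 and 0), with 2833, 2098 and 1698 unadjusted p-values under 0.05. Deviations of same-numbered Hu and Mu libraries from their group means correlated at 0.0324 on average over 12 pairs (-0.207 to 0.524, 2 pairs over 0.1). In a group of 2 libraries the deviations are exact opposites, so the pairs are not independent. Whether the numbers pair the libraries can therefore not be told from this value. Where an arm and time had 2 libraries, leaving 1 out leaves 1, which is then assumed to vary like the others. Hu had 3 libraries at ZT 2, 6 and 18. Depth limits few named genes, Npas2, Ifi44l and Mu values of Cxcl13 being the lowest.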
